A study of Mus musculus with 7 samples.

Results

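Checkpoint receptors are the 10 genes *Pdcd1*, *Ctla4*, *Lag3*, *Havcr2*, *Tigit*, *Cd160*, *Btla*, *Vsir*, *Cd96* and *Cd226*, taken by symbol from the 55367 genes of the count file. Among the 10, 9 passed the filter on low counts and were tested with 12623 genes in all. *Pdcd1*, *Ctla4* and *Cd96* rose in mouse CD8+ T cells treated with small extracellular vesicles (sEV) from leukemic spleens, by 1.6-fold, 1.5-fold and 1.26-fold. The rise of *Cd96* was less firm and was lost under 4 of 18 alternative fits. None of the 9 passed the test as lower. *Tigit* was not measurable at this depth.

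The study asked how vesicles of the leukemic microenvironment act on CD8+ T cells. CD8+ T cells were sorted from spleens of the Foxp3 YFP/cre strain, which the labels describe as healthy in both groups, and received sEV at 100 µg/ml over 48 h before 3′ RNA-seq with unique molecular identifiers. The 4 HCME-sEV libraries came from cells given control vesicles, isolated from spleens of healthy mice, and the 3 LME-sEV libraries from cells given leukemia vesicles, isolated from spleens of Eμ-TCL1 mice, in which a B-cell enhancer drives the TCL1 oncogene and a disease like chronic lymphocytic leukemia develops. Per the study's general methods for CD8+ T cells, cultures stood on anti-CD3 with anti-CD28 and IL2, so both groups were stimulated through the T-cell receptor. The vesicles come from whole spleens and are a mixture of the products of many cells. The figure legend of the study gives these group sizes the other way round, and the sample labels were followed here. The dose of 100 µg/ml is also that of the labels, for both groups. The study's general culture methods instead set the amount of each kind of vesicle by what its own spleens held, which was more for leukemic spleens. If the amounts differed, amount and source of the vesicles cannot be told apart here.

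PD-1 (*Pdcd1*), CTLA-4 (*Ctla4*), LAG-3 (*Lag3*), TIM-3 (*Havcr2*) and TIGIT (*Tigit*) are surface receptors that T cells acquire after activation and that dampen signals of the T-cell receptor and of CD28. They are needed to end a response, and their lasting presence together marks exhausted CD8+ T cells in chronic infection and cancer. CD96, TIGIT and CD226 bind shared ligands of the nectin family, CD160 and BTLA share the ligand HVEM, and CD226 is the activating member of its set, so that the word inhibitory does not describe all 10. Functions of both kinds have been described for CD96 and CD160.

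Total counts lay between 3689831 and 5030522 per library, and a limit of 3 counts corresponded to 0.58 to 0.804 CPM (TMM-normalized counts per 1e6 counts), which covers counting error only. Nothing in the labels says that libraries came from separate cultures or animals, so p-values measure the spread between these libraries, which may be technical. All 9 pairs of replicates differed by more than counting noise over all genes (chi-square per degree of freedom 2.12 to 6.02). This does not tell where the spread came from. The 9 CD8 T-cell markers were all present and their summed level was higher after LME-sEVs, at 4080 to 4550 CPM against 3730 to 3890 CPM. *Cd4* reached at most 3 counts and *Foxp3* at most 1 count in any library. The summed markers of CD4+ and regulatory T cells overlapped (39.4 to 43.4 against 34.6 to 42.9 CPM, 1 of 2 called). Summed B-cell markers stood at 18.6 to 19.8 against 13.7 to 16.7 CPM with 1 of 5 tested markers called, and summed myeloid markers at 18.4 to 21.5 against 12.4 to 17 CPM with 0 of 3 called and *C1qa* at 0. Summed natural killer cell markers overlapped (64.9 to 97.4 against 58.3 to 102 CPM, 0 of 4 called), as did basophil and mast cell markers (30 to 46.1 against 5.52 to 35.1 CPM, 3 of 6 called). The part of these cells in the changes of the receptors was not tested. In such bulk samples fewer cells of a type and less RNA per cell cannot be told apart.

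Levels below are TMM-normalized CPM of reads at transcript 3′ ends, where transcript length does not enter. The order of libraries in each list is HCME-sEV 1 to 4 and then LME-sEV 1 to 3. FDR is the p-value of the quasi-likelihood test of edgeR after adjustment by Benjamini-Hochberg for all 12623 genes, and a gene was called at an FDR under 0.05.

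In control cells the receptors covered a wide range of levels. *Cd96* (122 CPM) and *Ctla4* (119.6 CPM) were at the top, followed by *Cd226* (102.3 CPM) and *Cd160* (85.9 CPM). *Vsir* (48.6 CPM), *Pdcd1* (37.0 CPM) and *Btla* (27.3 CPM) formed the middle. *Havcr2* (4.40 CPM) and *Lag3* (2.07 CPM) were scarce. *Cd96* and *Ctla4*, and *Ctla4* and *Cd226*, had overlapping ranges and so were not separated by the spread of the 4 libraries. The ranges of *Pdcd1* and *Btla* touched, but *Pdcd1* was above *Btla* in each of the 4 libraries. After LME-sEVs *Ctla4* stood first by its mean and *Pdcd1* stood above *Vsir*, but the ranges of *Ctla4* and *Cd96*, of *Cd226* and *Cd160*, and of *Pdcd1* and *Vsir* overlapped there.

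**Figure D1:**
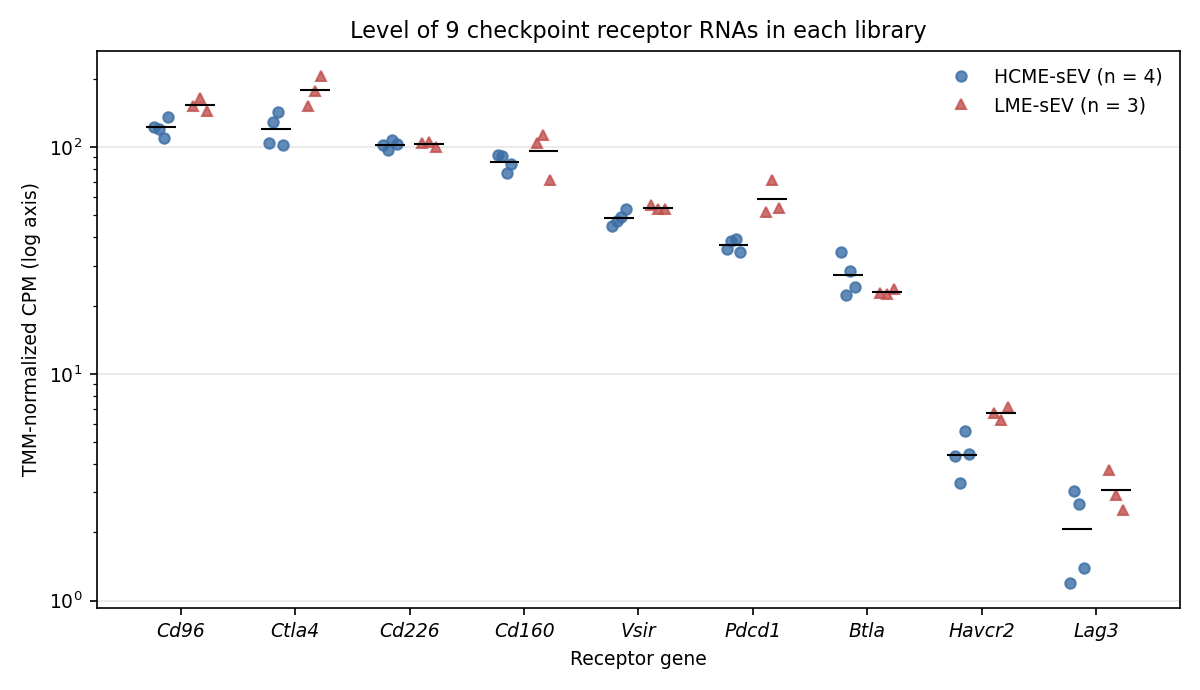
TMM-normalized CPM (log axis) of the 9 tested checkpoint receptor genes, with 1 point per library, circles for the 4 HCME-sEV and triangles for the 3 LME-sEV libraries, and black lines at group means. The groups are apart for *Pdcd1*, *Ctla4*, *Cd96* and *Havcr2* and overlap for the other 5 genes.

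*Pdcd1* encodes PD-1, which recruits the phosphatase SHP-2 to the T-cell receptor and CD28. Its level was 35.5, 38.4, 39.4 and 34.6 CPM in the HCME-sEV libraries and 51.5, 71.2 and 53.9 CPM in the LME-sEV libraries. All 3 LME-sEV libraries were above all 4 control libraries, and LME-sEV replicate 2 was the highest. The means were 37.0 ± 2.27 (SD, n = 4) and 58.9 ± 10.8 CPM (SD, n = 3), a log2 fold change of 0.68 (SE 0.12, 95% interval 0.43 to 0.92) with an edgeR FDR of 0.00128. The gene ranked 113 of 12623 by p-value.

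*Ctla4* encodes CTLA-4, which competes with CD28 for CD80 and CD86. It was at 104.7, 128.8, 142.5 and 102.3 CPM in control libraries and at 151.5, 176.7 and 205.6 CPM after LME-sEVs. The groups did not overlap, although the highest control library and the lowest LME-sEV library were close. The means of 119.6 ± 19.4 (SD, n = 4) and 177.9 ± 27.1 CPM (SD, n = 3) gave a log2 fold change of 0.58 (SE 0.11, 95% interval 0.34 to 0.82) and an edgeR FDR of 0.00307.

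*Cd96* encodes a receptor for CD155, the product of *Pvr*. It was at 122, 120.5, 109.5 and 136.2 CPM in control libraries and at 151.5, 164.9 and 144.2 CPM after LME-sEVs. Again all LME-sEV libraries were above all control libraries. The means were 122 ± 11.0 (SD, n = 4) and 153.5 ± 10.5 CPM (SD, n = 3), and the log2 fold change was 0.33 (SE 0.09, 95% interval 0.15 to 0.51) with an edgeR FDR of 0.0215. The call for *Cd96* was the least firm of the 3. It was lost without HCME-sEV replicate 2 (FDR 0.0631), without LME-sEV replicate 1 (FDR 0.0528) and without LME-sEV replicate 2 (FDR 0.144). It was also lost when counts were scaled to the summed CD8 T-cell markers (log2 fold change 0.18, FDR 0.239), a setting chosen after seeing the data. The study itself reported a decrease of CD96, CD226 and CD27 in a separate ex vivo experiment on CD8+ T cells. The values here are RNA counts and were not compared with that experiment.

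For *Pdcd1* and *Ctla4* the two-sided exact permutation test over libraries gave p = 0.0286, the smallest that 4 against 3 libraries allow, and for *Cd96* the exact permutation p was 0.0571. Together 3 of the 9 tested receptors were called, all higher, where 8.96% of all tested genes were called, 3.75% as higher and 5.21% as lower. No receptor was called with a log2 fold change beyond 1, a size that 1.28% of tested genes passed together with the FDR. Groups that did not overlap were found in 4 of 10 receptors, all higher after LME-sEVs, where 9.49% of tested genes were higher and 10.8% lower in this way. The log2 fold change was above 0 in 8 of the 9, with a median of 0.33 against 0.01 over all tested genes.

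**Figure D2:**
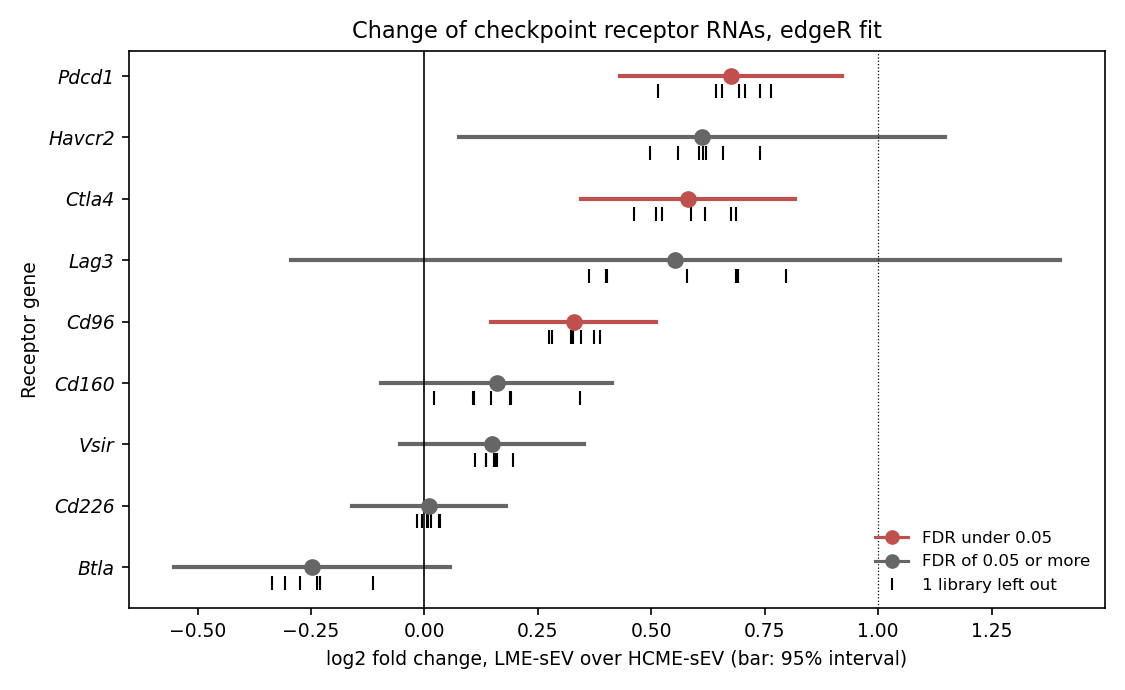
Log2 fold change of LME-sEV over HCME-sEV with its 95% interval (bars) for the 9 tested receptors, red where the FDR was under 0.05, and the value with each of the 7 libraries left out in turn (ticks). *Pdcd1* lies at 0.68, *Ctla4* at 0.58 and *Cd96* at 0.33, all tested receptors lie below 1, and the intervals of *Lag3*, *Cd160*, *Vsir*, *Cd226* and *Btla* include 0.

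The promoters of the called receptors are shown, each from 250 bases before to 50 bases after a RefSeq transcript start on GRCm38.p6, 5′ to 3′ on the strand of the gene. Capitals mark matches, on either strand, to the core motifs of NFAT (GGAAA), AP-1 (TGANTCA), TCF/LEF (CTTTGNT) and STAT (TTCNNNGAA), families that act in activated T cells. On the opposite strand the NFAT core reads TTTCC. The windows lie at chr1:94052504-94052803 (minus strand), chr1:60908775-60909074 (plus strand) and chr16:46120199-46120498 (minus strand).
Pdcd1: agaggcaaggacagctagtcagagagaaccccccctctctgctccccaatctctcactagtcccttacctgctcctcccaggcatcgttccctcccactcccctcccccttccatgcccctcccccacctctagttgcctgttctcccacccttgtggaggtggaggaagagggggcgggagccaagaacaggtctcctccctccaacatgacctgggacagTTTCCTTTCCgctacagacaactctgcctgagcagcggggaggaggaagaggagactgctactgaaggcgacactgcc
Ctla4: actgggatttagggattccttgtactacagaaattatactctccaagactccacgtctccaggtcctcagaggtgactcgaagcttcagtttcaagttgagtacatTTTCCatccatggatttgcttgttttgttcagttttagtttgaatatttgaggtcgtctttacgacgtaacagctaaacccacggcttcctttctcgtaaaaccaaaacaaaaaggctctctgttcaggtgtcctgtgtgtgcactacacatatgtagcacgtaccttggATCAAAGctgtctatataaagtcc
Cd96: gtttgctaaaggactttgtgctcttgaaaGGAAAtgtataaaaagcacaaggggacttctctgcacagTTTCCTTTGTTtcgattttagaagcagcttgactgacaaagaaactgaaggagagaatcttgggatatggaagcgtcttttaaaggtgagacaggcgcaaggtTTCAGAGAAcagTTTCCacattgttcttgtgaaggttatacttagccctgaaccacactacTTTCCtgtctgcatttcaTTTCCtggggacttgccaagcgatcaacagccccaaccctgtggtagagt

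The *Pdcd1* window held 2 NFAT matches next to each other just before the start and no other match. The *Ctla4* window held 1 NFAT match and 1 TCF/LEF match. The *Cd96* window held 5 NFAT matches, 1 TCF/LEF match that shares a base with one of these, and 1 STAT match. The NFAT core occurs in 61.3%, the TCF/LEF core in 18.6%, the STAT core in 8.3% and the AP-1 core in 7.81% of 32851 RefSeq promoter windows of this length. Receptors that were not called had matches too, with 2 NFAT matches for *Tigit* and 1 AP-1 match for *Havcr2*. One *Cd160* window held 1 NFAT and 1 STAT match, while its other window and those of *Btla* and *Vsir* held none. The windows of *Pdcd1*, *Ctla4* and *Cd96* had a GC content of 60.7%, 42.0% and 43.7%. A match is a description of the letters only, and none of these windows was measured here.

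*Havcr2* encodes TIM-3, a late marker of terminally exhausted T cells. Its level was 4.32, 3.28, 5.58 and 4.41 CPM in control libraries and 6.70, 6.27 and 7.15 CPM after LME-sEVs, from 13 to 37 counts per library. The groups did not overlap. Its log2 fold change of 0.61 (SE 0.26, 95% interval 0.08 to 1.15) was as large as that of *Ctla4*, but the edgeR FDR was 0.152 and the exact permutation p was 0.0571.

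*Lag3*, whose product binds MHC class II, was counted 5, 12, 10 and 6 times in control libraries and 14, 13 and 13 times after LME-sEVs. In CPM the groups overlapped, at 1.2 to 3.03 against 2.51 to 3.75. This gave a log2 fold change of 0.55 with a 95% interval from -0.30 to 1.40 (edgeR FDR 0.454), so changes of this size could not be resolved at this depth. *Tigit* was counted 2, 1, 0 and 3 times in control libraries and 2, 2 and 1 times after LME-sEVs. Both groups were at or under the limit of 3 counts and no fold change is given.

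*Cd160* and *Btla* encode receptors for HVEM. *Cd160* was at 92.0, 91.2, 76.6 and 84.0 CPM in control libraries and at 104.3, 113.3 and 71.7 CPM after LME-sEVs. LME-sEV replicate 3 was below every control library and the other LME-sEV libraries were above all of them. The log2 fold change was 0.16 (95% interval -0.09 to 0.41, edgeR FDR 0.481), 0.34 without LME-sEV replicate 3 (FDR 0.0782) and 0.02 without LME-sEV replicate 2 (FDR 0.96). An exon of *Cd160* overlaps one of *Pdzk1* on the opposite strand, and the strand setting of the counting is not given in the sources used here, so its level is uncertain.

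*Btla* was the only tested receptor with a log2 fold change below 0. It was at 34.6, 22.2, 28.4 and 24.1 CPM in control libraries and at 22.8, 22.4 and 23.8 CPM after LME-sEVs, with all 3 LME-sEV libraries inside the control range. Its log2 fold change was -0.25 (95% interval -0.55 to 0.06, edgeR FDR 0.331), and -0.11 without HCME-sEV replicate 1, the highest library.

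*Vsir* encodes VISTA, which holds resting T cells in check. It was at 44.9, 47.2, 49.2 and 53.1 CPM in control libraries and at 55.5, 53.1 and 53.3 CPM after LME-sEVs. The highest control library reached the lowest LME-sEV library. Its log2 fold change was 0.15 (95% interval -0.05 to 0.35, edgeR FDR 0.39), and the interval left no room for a rise as large as the estimate for *Pdcd1*.

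*Cd226* encodes DNAM-1, which delivers an activating signal on binding the same ligand as CD96. It was at 101.8, 97.0, 107.1 and 103.3 CPM in control libraries and at 104.3, 105 and 99.7 CPM after LME-sEVs. The groups overlapped throughout, with means of 102.3 ± 4.19 (SD, n = 4) and 103 ± 2.89 CPM (SD, n = 3). The resulting log2 fold change was 0.01 (SE 0.08, 95% interval -0.16 to 0.18, edgeR FDR 0.964). At 384 to 516 counts per library this was one of the most precise values among the receptors, and its interval lies below the estimates for *Cd96*, *Ctla4* and *Pdcd1*.

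Ratios of counts within a library were compared for pairs of receptors, and these do not depend on the scaling of the libraries. Some of the pairs share ligands, namely *Cd96* and *Cd226*, *Ctla4* and *Cd28*, and *Cd160* and *Btla*. *Cd96* over *Cd226* was 1.2, 1.24, 1.02 and 1.32 in control libraries and 1.45, 1.57 and 1.45 after LME-sEVs, without overlap. *Pdcd1* over *Cd226* was 0.349, 0.396, 0.367 and 0.335 against 0.494, 0.678 and 0.541, also without overlap. As the level of *Cd226* was nearly the same in both groups, both ratios restate the rises of *Cd96* and *Pdcd1*. *Ctla4* over *Cd28*, the receptors that compete for CD80 and CD86, was 0.552, 0.549, 0.567 and 0.442 against 0.567, 0.591 and 0.704. Here the highest control library reached the lowest LME-sEV library, and *Cd28* itself was called higher (below). *Ctla4* over *Icos* was 0.707 ± 0.16 (SD, n = 4) against 0.894 ± 0.16 (SD, n = 3), *Cd160* over *Btla* 3.23 ± 0.69 against 4.22 ± 1.1, and *Pdcd1* over *Ctla4* 0.313 ± 0.031 against 0.335 ± 0.071, all with overlapping groups.

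**Figure D3:**
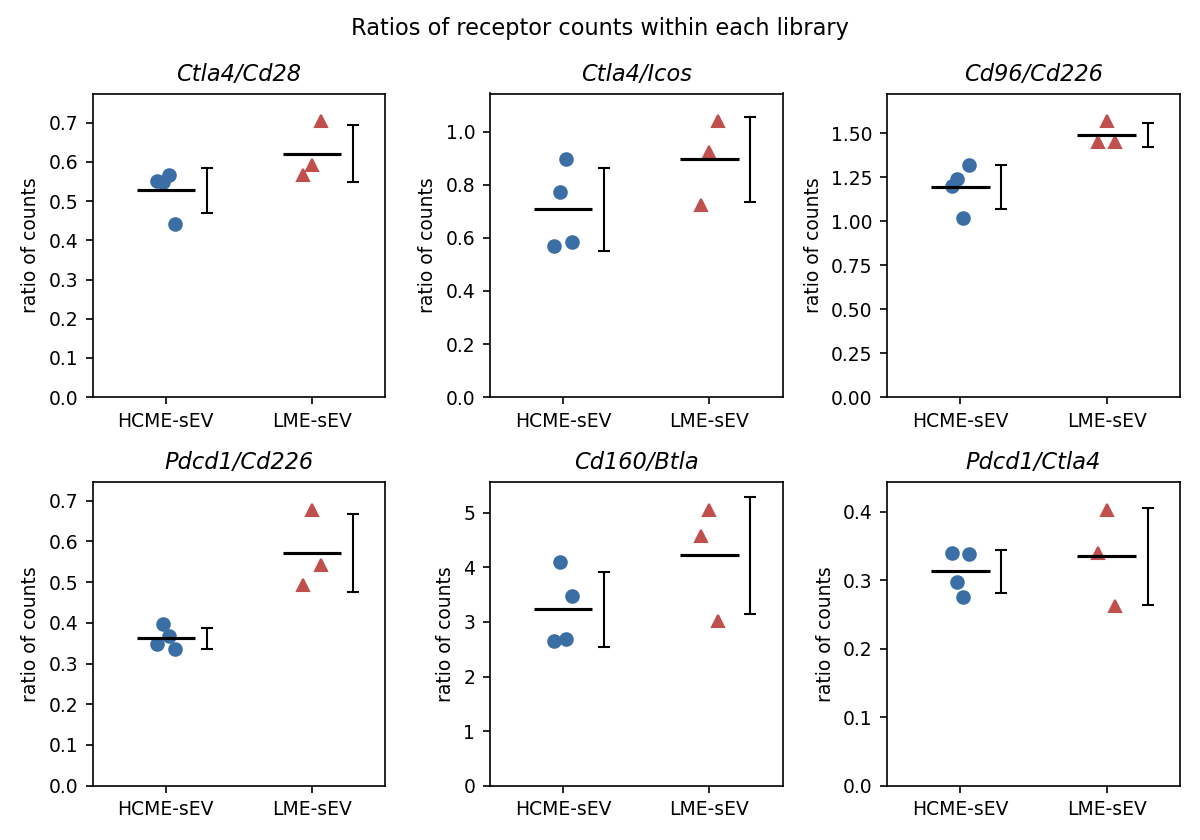
Ratio of the counts of a pair of genes within each library for 6 pairs (vertical axes from 0), circles for the 4 HCME-sEV and triangles for the 3 LME-sEV libraries, black lines at means and bars at 1 SD. *Cd96*/*Cd226* and *Pdcd1*/*Cd226* are higher in every LME-sEV library than in any control library, while the other 4 ratios overlap.

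The summed level of the 10 receptors was 549.6 ± 8.73 CPM (SD, n = 4) in control cells and 676.9 ± 34.4 CPM (SD, n = 3) after LME-sEVs, in ranges of 541 to 561 and 652 to 716 CPM. Within this sum, in which the called receptors are included, *Pdcd1* made up 6.35% to 7.01% in control libraries and 7.89% to 9.94% after LME-sEVs. *Cd226* made up 17.6% to 19.1% and then 14.7% to 16%, although its own level was nearly the same in both groups. *Ctla4* and *Cd96* were the largest items of the sum in both groups, at 21.7% and 22.2% and then 26.3% and 22.7%.

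The CD8 T-cell markers were higher after LME-sEVs, with *Cd3e* (log2 fold change 0.36) and *Cd3g* (0.49) called among 9 and all 9 above 0. The receptors were therefore also expressed per 1000 counts of these markers. On this scale *Pdcd1* was at 9.19 to 10.1 in control libraries and at 12.6 to 15.7 after LME-sEVs, a ratio of means of 1.43. *Ctla4* was at 27.1 to 36.6 and at 36.9 to 50.4, a ratio of 1.35. Both remained without overlap. *Cd96* (31.9 ± 3.46 against 36.2 ± 0.806), *Havcr2* (1.15 ± 0.24 against 1.59 ± 0.191) and *Cd226* (26.7 ± 1.19 against 24.3 ± 1.18) overlapped. Scaled in this way the log2 fold change of *Cd226* was -0.13 (FDR 0.397) and that of *Btla* -0.39 (FDR 0.0779), while the median of all genes moved to -0.13.

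For the ligands and partners of the receptors, 11 of 18 genes were tested, 1 was called higher and 1 lower (18.2%, against 8.96% of all tested genes), and the median log2 fold change was 0.03. *Pvr*, which encodes CD155, the shared ligand of CD96, CD226 and TIGIT, rose from 16.5 ± 0.536 (SD, n = 4) to 26.1 ± 1.84 CPM (SD, n = 3), a log2 fold change of 0.66 (SE 0.13, edgeR FDR 0.00317). Its control libraries lay between 15.9 and 17.2 CPM and its LME-sEV libraries between 24.9 and 28.2 CPM. *Hmgb1*, whose product is a ligand of TIM-3, fell from 357.1 ± 19.9 to 294.6 ± 37.7 CPM (log2 fold change -0.28, edgeR FDR 0.0486), a call at the margin that was lost under 9 of 18 alternatives. The PD-1 ligands, picked after their values were seen, did not pass the test, with *Cd274* at 13.6 ± 1.72 and 12.1 ± 2.02 CPM (FDR 0.66) and *Pdcd1lg2* at 20.3 ± 2.85 and 14.7 ± 1.99 CPM (FDR 0.0749), in groups that did not overlap. *Igsf11*, a ligand of VISTA, was at 0 in every library.

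Of the proteins that carry the signals or the surface traffic of the receptors, 2 of 21 tested genes were called, both higher, with a median of 0.03. This share of 9.52% is near the 8.96% of all tested genes. *Cblb*, a ubiquitin ligase that restrains T-cell activation, rose from 165.7 ± 17.4 to 243.1 ± 14.8 CPM (log2 fold change 0.55, edgeR FDR 6.08e-04). *Trat1*, whose product TRIM helps to bring CTLA-4 to the surface, rose from 27.4 ± 6.08 to 50.2 ± 8.05 CPM (log2 fold change 0.88, edgeR FDR 8.01e-04). In both genes all LME-sEV libraries were above all control libraries.

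Among 32 tested transcription factors that act on checkpoint receptors or on effector, memory and exhausted states, 5 were called higher and 6 lower (34.4%, against 8.96% of all tested genes), with a median of -0.03. The split depended on the fit, with 7 higher and 4 lower under library size only, 8 and 5 with the replicate block, and 5 and 10 with scaling to the CD8 T-cell markers. *Ikzf2* (138.5 ± 33.2 to 288.4 ± 14.9 CPM, log2 fold change 1.06, edgeR FDR 5.10e-05) and *Bcl6* (8.72 ± 2.68 to 20.1 ± 2.11 CPM, 1.22, FDR 6.62e-04) rose beyond a log2 fold change of 1. *Prdm1*, which encodes the repressor Blimp-1 (0.92, FDR 0.0034), and *Tcf7*, which encodes the memory factor TCF-1 (0.50, FDR 0.00493), rose as well. The fifth was *Tox*, a factor of exhausted cells (29.7 ± 6.08 to 44.6 ± 5.25 CPM, 0.59, FDR 0.0122). *Batf3* (78.9 ± 13.7 to 40.1 ± 7.22 CPM, -0.98, FDR 1.88e-04) and *Irf4* (103.3 ± 3.81 to 77.4 ± 3.11 CPM, -0.42, FDR 0.00398) fell. So did *Tbx21*, which encodes the effector factor T-bet (-0.41, FDR 0.0101), and *Id2* (-0.35, FDR 0.0192). The others that fell were *Egr1* (FDR 0.046) and *Egr3* (FDR 0.0277), which are induced by the T-cell receptor. *Egr1* was called at the margin with overlapping groups, and *Egr2* was not called (FDR 0.408). *Tox*, *Egr1* and *Egr3* were named after their values were seen, and their single calls were not followed under the alternatives.

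In other inhibitory surface proteins, 2 of 24 tested genes were called higher and 1 lower, with a median of 0.01. This share of 12.5% is close to the 8.96% of all tested genes. *Tnfrsf18*, which was not called (FDR 0.282), is counted both here and among the costimulatory receptors. *Il10ra*, the alpha chain of the IL10 receptor, rose from 27.9 ± 2.51 to 51.9 ± 5.87 CPM (log2 fold change 0.90, edgeR FDR 1.09e-04). *Il10rb*, the other chain, was not called (0.13, FDR 0.466). *Cd72* rose from 6.79 ± 1.19 to 12.7 ± 2.73 CPM (0.92, FDR 0.00883). *Cd72* is best known from B cells, whose summed markers were also higher after LME-sEVs. Of the 5 tested B-cell markers, 4 had a log2 fold change above 0, and *Ms4a1* went the other way (-0.38, FDR 0.742). *Pax5*, at 1 to 6 counts per library and not tested, was lower in every LME-sEV library than in any control library. The part of B cells in the rise of *Cd72* was not tested. *Lair1*, a collagen receptor, fell from 13.2 ± 1.01 to 7.18 ± 1.56 CPM (-0.88, FDR 0.0077).

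Costimulatory receptors, with the ligand genes *Tnfsf14* and *Tnfsf4* counted among them, were not uniform either. Of 15 tested, 3 were called higher and 1 lower (26.7%, against 8.96% of all tested genes), with a median of 0.00. The balance turned around with scaling to the CD8 T-cell markers, to 1 higher and 4 lower, and was 4 and 0 under library size only. *Slamf6* (76.4 ± 4.72 to 110.2 ± 4.41 CPM, log2 fold change 0.53, edgeR FDR 6.92e-04), *Cd27* (137.2 ± 17.8 to 186.5 ± 24.8 CPM, 0.45, FDR 0.00945) and *Cd28* (226.7 ± 26.2 to 286 ± 16.5 CPM, 0.34, FDR 0.0208) rose. *Crtam* fell from 84.0 ± 8.38 to 66.0 ± 3.50 CPM (-0.35, FDR 0.0282). The receptors of the checkpoint list thus had a higher median than each of the 5 related lists, which is a description with no test between lists.

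**Figure D4:**
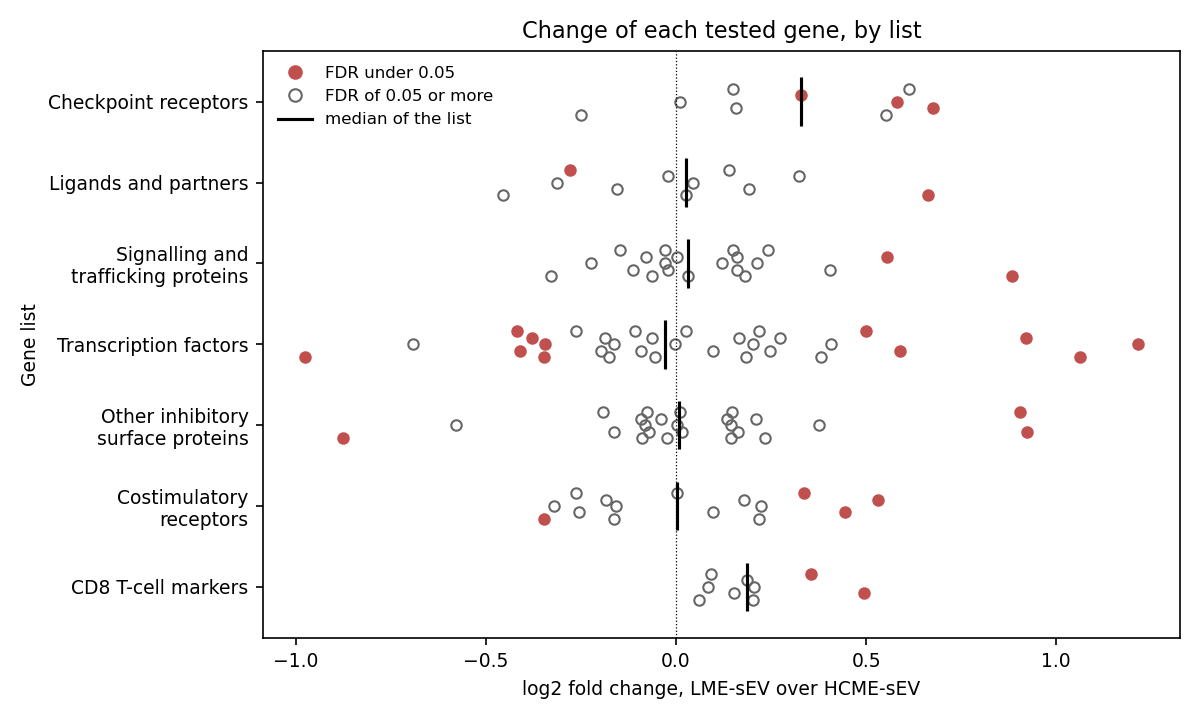
Log2 fold change of LME-sEV over HCME-sEV for each tested gene of 7 lists, filled red where the FDR was under 0.05, with a black line at the median of each list. The median of the checkpoint receptors is 0.33, that of the CD8 T-cell markers is 0.19, and those of the other 5 lists lie between -0.03 and 0.03.

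The genes whose pattern over the 7 libraries was most like that of a called receptor were found by the root mean square difference of log2 CPM centred on each gene's mean. For *Pdcd1* such a gene was *n-R5-8s1* (difference 0.0561, log2 fold change 0.73, edgeR FDR 0.00103). For *Ctla4* they were *Cerk* (0.0747, 0.60, FDR 0.0104) and *Csrnp2* (0.0807, 0.89, FDR 0.232). *Csrnp2* was scarce, with means of 1.12 CPM in control libraries and 2.07 CPM after LME-sEVs. For *Cd96* they were *Trib1* (0.0199, 0.29, FDR 0.0947) and *Sp2* (0.0222, 0.32, FDR 0.0742).

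By GENCODE vM21 on GRCm38 the receptors are single protein-coding genes, and none has a near-identical copy of its 3′ end elsewhere. *Pdcd1* spans chromosome 1 from 94038305 to 94052553 and *Ctla4* chromosome 1 from 60887000 to 60915832. *Tigit* (43648867 to 43664146), *Btla* (45224315 to 45257670) and *Cd96* (46035657 to 46120251) lie near each other on chromosome 16. *Lag3* spans chromosome 6 from 124904361 to 124911705, *Cd160* chromosome 3 from 96798763 to 96829351, and *Havcr2* chromosome 11 from 46454935 to 46481255. *Vsir* (chromosome 10, 60346851 to 60372684) lies within the span of *Cdh23* without overlap of exons.

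*Cd226* spans chromosome 18 from 89176967 to 89272229.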

How the data were processed

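The authors deposited whole-number counts per gene symbol of 3′ RNA-seq reads for 7 libraries. Per the study's methods and the submitters' processing notes, reads were trimmed with cutadapt 2.10, mapped to GRCm38 with STAR 2.5.3a, collapsed by molecular identifier with UMI-tools 1.0.0 and counted with featureCounts of Subread 2.0.0. Groups came from the sample labels, and the file held 0 unused sample columns.

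Genes were kept where the mean over the libraries reached 5 counts, scaled by TMM (factors 0.966 to 1.03) and tested with edgeR 4.0.16 (glmQLFit, glmQLFTest) in R 4.3.3 without covariates, with Benjamini-Hochberg adjustment. Fits were first checked on simulated counts. Single genes were also compared by a two-sided exact permutation test over libraries, run for the 10 receptors. Outlying libraries were sought by Dixon's ratio. Symbols were placed on GENCODE vM21, 3′ ends were compared with blast 2.17.0, and promoters came from RefSeq (GRCm38.p6), matched by symbol. Alternatives were other scalings and filters, DESeq2 1.42.0, limma-voom (limma 3.58.1), the likelihood ratio test, a replicate block, leaving out each library, and scaling to the CD8 T-cell markers, which was added after seeing the data.

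The receptors and all gene lists were chosen with earlier results of these data known. Named were all 10 receptors, from each related list the called genes (at most 4 with the smallest p in each direction), and the 2 genes most like each called receptor, of which 1 is not reported here.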

Additional observations from a re-analysis of the deposited data

Results flagged for a closer look

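The named genes and the summed level of each gene list were searched in the 4 HCME-sEV libraries for a single library far from the others, by the gap to its nearest neighbor over the whole range (critical value 0.829). Among 47 items tested, 2 stood out, where chance gives 2.35 at about 1 in 20. For *Batf3* the ratio was 0.843, with HCME-sEV replicate 1 at 99.2 CPM and the next library at 74.5 CPM. For *Il10ra* the ratio was 0.931, with HCME-sEV replicate 3 at 31.6 CPM and the next at 26.8 CPM. No receptor of the list stood out.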

How the results depend on the processing

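*Pdcd1* (log2 fold change 0.51 to 0.76) and *Ctla4* (0.44 to 0.69) stayed past an FDR of 0.05 under all 18 alternatives, *Cd96* under 14, and *Havcr2*, *Lag3*, *Cd160*, *Btla* and *Vsir* under 0. *Cd226* ranged from -0.015 to 0.034 with 1 library left out, falling below 0 without HCME-sEV replicate 2 or LME-sEV replicate 2, and turned to -0.13 with marker scaling, never past the threshold. The called receptors numbered 2 to 3 with 1 library left out. The called ligands fell from 2 to 1 with library size only, upper quartile, filterByExpr or at least 5 counts in every library, rose to 3 (1 higher, 2 lower) with the replicate block or marker scaling, and numbered 1 to 2 with 1 library left out. With 1 library left out, called transcription factors numbered 6 to 13 (11 in the full fit), other inhibitory proteins 1 to 4 (3), and costimulatory receptors 1 to 4 (4). The lowest values of these 3 lists came without LME-sEV replicate 2.

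Without LME-sEV replicate 2, *Tbx21*, *Id2*, *Lair1*, *Cd72*, *Cd28*, *Cd27* and *Crtam* were no longer called (FDR 0.057 to 0.119), nor were *Id2*, *Cd72*, *Cd28*, *Crtam* and *Cerk* without LME-sEV replicate 3 (0.0808 to 0.122). *Crtam* was also lost without HCME-sEV replicate 1 (0.0738) or 2 (0.0786), without LME-sEV replicate 1 (0.118) and with library size only (0.0528), and *Cd28* (0.204) and *Cd27* (0.0579) with marker scaling.

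Over all genes, 473 rose and 658 fell. The split was 612 and 465 with library size only, 522 and 543 with upper quartile scaling, and 215 and 1723 with marker scaling, which shifted the median of all genes to -0.13. The 1131 calls became 723 without HCME-sEV replicate 2, 391 without LME-sEV replicate 2 and 458 without LME-sEV replicate 3. DESeq2 called 884. The causes were not tested.

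Same-numbered libraries deviated together only weakly (correlations 0.0735, 0.154 and 0.0257, against -0.206 to 0.0803 for the other combinations). The labels do not say whether the numbers pair the samples, and these values cannot settle it. With the replicate block, 1454 genes and 3 receptors were called (*Pdcd1* 0.63, *Ctla4* 0.51, *Cd96* 0.39). Depth limits *Tigit* and *Lag3*, which had few counts.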

Other observations

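Among the basophil and mast cell markers, 3 of 6 tested genes were called higher after LME-sEVs, against 3.75% of all tested genes. *Prg2* was at 0.375 ± 0.252 CPM (SD, n = 4) in control libraries and at 6.02 ± 2.76 CPM (SD, n = 3) after LME-sEVs (edgeR FDR 1.65e-04), *Prss34* at 2.1 ± 1.57 and 6.94 ± 0.898 CPM (FDR 0.0153), and *Mcpt8* at 4.51 ± 3.76 and 12.1 ± 4.62 CPM (FDR 0.0341). The control level of *Prg2* was under the limit of 3 counts, and the *Mcpt8* groups overlapped. *Cpa3* (9.15 ± 6.07 and 7.64 ± 1.39 CPM, FDR 0.721), *Fcer1a* (1.63 ± 0.90 and 2.08 ± 0.554 CPM, FDR 0.706) and *Gata2* (1.03 ± 1.03 and 2.4 ± 1.64 CPM, FDR 0.266) did not pass the test. *Zbtb7b*, which encodes the factor ThPOK of CD4+ T cells, rose from 8.18 ± 3.7 to 14.8 ± 0.982 CPM (FDR 0.0241). *Ikzf4*, the other tested marker of CD4+ and regulatory T cells, went the other way without passing the test (log2 fold change -0.19, FDR 0.38). *Cd4* reached at most 3 counts and *Foxp3* at most 1 count, and *Cd40lg* had 3 to 5 counts per library.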
